A study of Mus musculus with 22 samples.

Results

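The miR-297, miR-466, miR-467 and miR-669 families were profiled in round spermatids (RS), the haploid cells formed by meiosis in the testis. Members were the deposited mature names made of one of these 4 numbers with any letters, copy number and arm, and 80 of the 1966 names matched. Reads were found for 74 of them, and the 6 names with 0 counts were miR-466i-5p, miR-466i-3p, miR-467f, miR-467g, miR-669k-3p and miR-669n. miR-297b-3p and miR-297c-3p had the same counts in every library and were counted as 1 member under the first name, which left 73 members with counts.

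The samples form 4 groups of genotype and batch. In batch 1, RS of WT mice (n = 5) were set beside RS of GRTH knock-out mice (KO, n = 5). In batch 2, RS of WT mice (n = 6) were set beside RS of knock-in mice (KI, n = 6), which carry a changed GRTH and lack its phosphorylated form. Batches are numbered here as in the labels, whereas the methods of the study name the batch of KI before that of KO. The mice of all groups were 75 to 85 days old, and RS were separated by sedimentation of testis cells through a BSA gradient. GRTH, also called DDX25, is a testis RNA helicase that takes part in mRNA export and in the chromatoid body, an RNA granule of spermatids. KO and KI males are sterile because spermatids do not elongate, so RS is the last stage that all genotypes hold in number. The labels do not say whether each library came from its own animal, so p-values measure the spread between these libraries.

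A miRNA hairpin is cut by Drosha in the nucleus and by Dicer in the cytoplasm, and either arm of the resulting duplex, 5p or 3p, can be loaded into an Argonaute protein. The mature strand then pairs with target mRNAs mainly through its seed, bases 2 to 8. In the mouse, most members of these families lie in a long rodent-specific cluster inside an intron of Sfmbt2, a Polycomb group gene that is imprinted and expressed from the paternal allele in early embryos and placenta. The hairpins are close copies of each other built on simple repeats of UG and CA steps.

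In the deposited annotation the 80 names had 150 loci. Of these, 139 loci of 70 names lay inside Sfmbt2, on its strand, between chr2:10466677-10518240 of GRCm38, and 0 of them overlapped an annotated exon. The gene itself spans chr2:10370510-10595253, so the members fill a stretch of 51564 bases inside it. The other 11 loci were on other chromosomes. They are those of miR-466j, miR-467f, miR-466i-5p, miR-466i-3p, miR-466f (the entry with no arm), miR-466q, miR-466k, miR-669n, miR-467g and miR-467h, together with 1 of the 4 loci of miR-297a-5p. Among them miR-466q lay in an intron of Tnik, and the remaining ones lay in no annotated gene.

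The RefSeq table for GRCm38.p6 gave a mature sequence for 8 of the 80 names, all of them with loci outside Sfmbt2. Shown here are the 4 that had reads and, for contrast, 2 of the 4 with 0 counts, because they show the 2 repeat patterns on which the families are built. Capitals mark the seed.
miR-466k: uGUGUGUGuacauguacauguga
miR-466j: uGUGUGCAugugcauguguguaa
miR-467h: aUAAGUGUgugcauguauaugu
miR-466q: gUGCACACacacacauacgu
miR-466i-3p: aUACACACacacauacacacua
miR-467f: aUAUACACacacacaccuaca

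miR-466k at chr3:85467396-85467418 had 13 UG or GU steps among its 22 neighbouring base pairs, and miR-466j at chr10:60960802-60960824 had 14 of 22. miR-467f at chr11:69635419-69635439, on the minus strand, had 0 such steps and 13 CA or AC steps among 20. All 8 sequences had different seeds. Seeds could be compared only with the 1675 names of the table that had a sequence, which leaves out every member inside Sfmbt2. Among these names, the 1 other that shared a seed with any of the 8 was miR-668-5p. It shares its seed with miR-467h and had 0 counts.

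Library totals were 870913 to 1081333 counts in WT and 559957 to 881323 in KO of batch 1, and 2067322 to 3239357 in WT and 2107461 to 3101145 in KI of batch 2. A level of 3 counts corresponded to between 0.926 and 5.36 CPM (counts scaled to library size), a floor for counting error only. The 5 miRNAs listed for germ cells after meiosis were both arms of miR-34b and of miR-34c, and miR-449a-5p. Their summed level was 195077 to 238476 CPM in WT and 169802 to 224837 CPM in KO of batch 1, and 365114 to 419895 CPM in WT and 338182 to 386641 CPM in KI of batch 2. This list was therefore higher in every library of batch 2 than in any of batch 1, and its 5 markers were all detected. Whether it sets cells after meiosis apart from cells in meiosis was not tested. The summed level of 6 blood and immune miRNAs was 4036 to 5094 CPM in WT and 4331 to 6090.1 CPM in KO of batch 1, and 2934 to 3954 CPM in WT and 3639 to 5897 CPM in KI of batch 2. For this list the WT libraries of the batches did not overlap. The 2 epithelial markers summed to 178 to 223 CPM in WT and 108 to 149.9 CPM in KO, and to 239 to 303 CPM in WT and 191 to 267 CPM in KI. Their KO libraries were all below those of WT in batch 1, and the WT libraries of the batches did not overlap. The 2 markers of Sertoli cells and gonad soma summed to 68.9 to 195 CPM in WT and 45 to 109 CPM in KO, and to 114 to 187 CPM in WT and 79.3 to 108 CPM in KI, where the groups did not overlap. The 2 striated muscle markers summed to 8.1 to 29.4 CPM in WT and 11.5 to 146 CPM in KO, and to 42.5 to 758 CPM in WT and 38 to 523 CPM in KI, so that the WT libraries of the batches did not overlap. The 4 markers of endothelium and smooth muscle summed to between 179.6 and 543 CPM, and the groups of each batch overlapped. None of these lists had a marker at 0 in every library, their part in the results was not tested, and in bulk samples fewer cells of a type and less RNA per cell cannot be told apart.

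The members' share of a library was 2.26% ± 0.0935 (SD, n = 5) for batch 1 WT and 2.05% ± 0.132 (SD, n = 5) for KO. It was 1.44% ± 0.0686 (SD, n = 6) for batch 2 WT and 1.33% ± 0.128 (SD, n = 6) for KI. The WT libraries of batch 1 ranged from 2.16% to 2.36%, and those of KO from 1.91% to 2.20%. The WT libraries of batch 2 ranged from 1.34% to 1.52%, and those of KI from 1.10% to 1.5%. Ranges of mutant and WT overlapped in both batches, and the batches did not overlap with each other. Reads of near-identical names enter these shares more than once. With such names replaced by their mean counts per locus, the shares were 0.649% for WT and 0.564% for KO of batch 1. They were 0.362% for WT and 0.344% for KI of batch 2.

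Among the families, the 3p products of miR-669 held 44.0% and the 3p products of miR-466 held 31.2% of all member counts. The 5p products of miR-669 followed with 11.5% and those of miR-467 with 7.91%. miR-467 was the number in which the 5p arm was the major one, since its 3p products held 1.06%. In miR-466 the order was the opposite, with 2.07% for its 5p products, and miR-297 held 1.51% as 3p and 0.68% as 5p. These shares count reads of near-identical copies more than once, so they do not rank the families by distinct reads. miR-669a-3p and miR-669o-3p had 22029.0 to 22030.0 counts per locus over 12 loci, and the largest miR-466 3p group had 12842.1 to 13659.0. miR-467e-5p, with 1 locus, had 25379.

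Of the 73 members, 4 had a mean of 1000 CPM or more over the 22 libraries, 14 had 100 to under 1000 CPM, 21 had 10 to under 100 CPM and 34 were below 10 CPM. miR-669a-3p was the most abundant and stood 22nd of all names by mean CPM, and miR-466b-3p stood 44th. These ranks depend on how reads of near-identical copies were counted. Several names carried the same reads, and 17 had more than 1 locus. The counts of 8 of the 17 were divisible by their number of loci in every library. Divided by loci, miR-669a-3p stood 99th, and miR-467e-5p, which has 1 locus, was the highest member at 90th.

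The overlap between names was measured directly. Among 61 names with at least 30 counts per locus, those whose counts per locus agreed within 10% formed 8 groups with 20 names, and 49 groups were left in all. The names in each of the 8 groups were of the same arm. miR-669a-3p (11 loci) and miR-669o-3p had 22029 and 22030.0 counts per locus, and this pair held 43.18% of the member counts. miR-466a-3p, miR-466b-3p, miR-466c-3p, miR-466e-3p and miR-466p-3p had 12842.1 to 13659.0 counts per locus and held 30.16%. miR-669a-5p and miR-669p-5p had 2866 counts per locus each, and the miR-297 3p names had 3070.0. Names in such a group cannot be told apart in these counts and are not independent measurements.

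**Figure D1:**
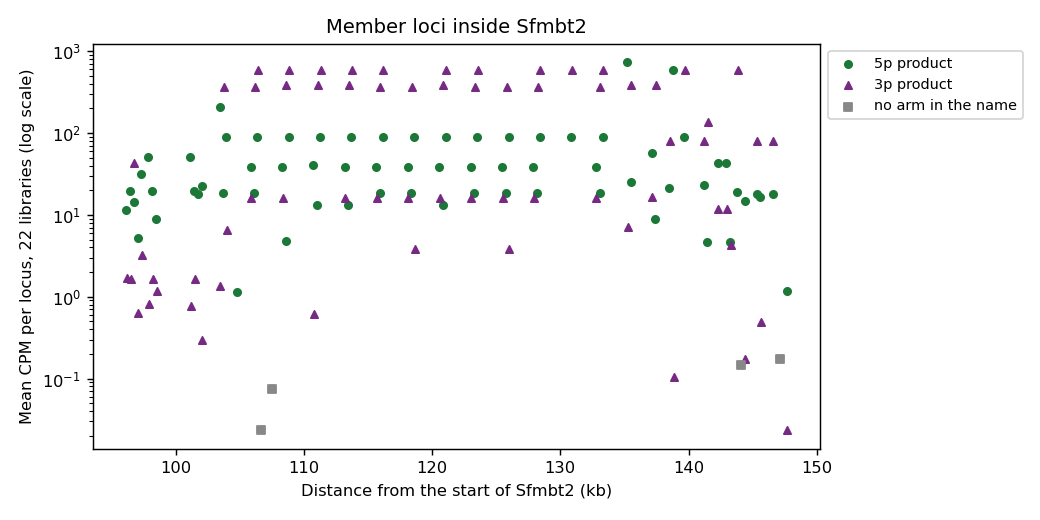
Mean CPM per locus over the 22 libraries (vertical axis, log scale) of the member loci inside Sfmbt2, against their distance from the start of the gene in kb (horizontal axis), for members with counts. Green circles are 5p products, purple triangles 3p products and grey squares names with no arm, and the rows of symbols at one height are names and copies that carry the same reads.

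The cluster map shows this repetition along the gene. The upper rows of 3p symbols are the copies of miR-669a-3p and of the miR-466 3p group, which alternate along the middle of the cluster. The high 5p symbols towards its far end are miR-467e-5p and miR-669c-5p, each with 1 locus and 25379 and 20664 counts.

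The first comparison asked how the members differed between KO and WT RS. Every call in KO was a fall, and by name the falls were mostly in 3p products. miR-669f-3p, miR-669m-3p, miR-297a-3p, miR-669c-5p, 6 miR-466 3p names, miR-467e-5p and miR-669a-3p were among them. The edgeR quasi-likelihood test, with Benjamini-Hochberg adjustment over all 334 miRNAs tested and calls at an adjusted p under 0.1, called 15 of the 41 members that passed the filter on low counts. Of all miRNAs tested, 41.9% were called, 20.7% lower and 21.3% higher, and of the members 36.6% were lower and 0 were higher. The 15 called names came from 10 of the 32 groups of near-identical names tested. The median log2 fold change (log2FC) was -0.22 over the members and 0.01 over all miRNAs, and 32 members were below 0 and 9 above. By arm, 11 of 14 tested 3p products and 4 of 26 tested 5p products were called lower. These are counts of names. Among the 11, 5 miR-466 names carry the same reads and so do the miR-297 names, so the measurements are fewer. Among the other miRNAs, 24 of 125 3p products were called lower and 33 higher, and 29 of 161 5p products were called lower and 36 higher. Samples of KO were all below those of WT for 10 of the 41 members, against 12% of all miRNAs tested that did not overlap in this direction. The 10 include the 5 miR-466 names and both miR-297 3p names that carry the same reads, so here too the measurements are fewer.

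Among the miR-297 members, both 3p products fell and 0 of 3 5p products were called. miR-297a-3p was at 172, 186, 188, 168 and 184 CPM in WT and at 106, 128, 118, 123 and 102 CPM in KO. Every KO library was below every WT library. Its log2FC was -0.61 (SE 0.103, adjusted p = 0.00183 by edgeR), and miR-297b-3p, which carries the same reads, gave the same value. miR-297a-5p, from the other arm, averaged 85.4 ± 16.9 CPM for WT (SD, n = 5) and 87.6 ± 16 CPM for KO (SD, n = 5), with a log2FC of 0.06 (SE 0.177, edgeR adjusted p = 0.794).

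Among the miR-466 members, 6 of 6 tested 3p products fell, by 0.32 to 0.43 on the log2 scale, and 0 of 9 tested 5p products were called. Of the 6, 5 are the names that carry the same reads, so they are 2 measurements, the group and miR-466d-3p. miR-466b-3p was at 4064, 3859, 3952, 3817 and 3551 CPM in WT and at 3216, 3273, 2662, 2836 and 3183 CPM in KO. The groups did not overlap, and the log2FC was -0.32 (SE 0.0702, edgeR adjusted p = 0.00709). miR-466d-3p, with a single locus, gave -0.43 (SE 0.0947, edgeR adjusted p = 0.00724). miR-466b-5p averaged 149.8 ± 38.2 CPM for WT (SD, n = 5) and 167 ± 57.9 CPM for KO (SD, n = 5), with a log2FC of 0.19 (SE 0.226, edgeR adjusted p = 0.543).

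Among the miR-467 members, 1 of 5 tested 5p products fell and 0 of 2 tested 3p products were called. The one that fell was miR-467e-5p, the most abundant member per locus, at 976, 1014, 945, 952 and 888 CPM in WT and 743, 769, 687, 736 and 860.5 CPM in KO. The groups did not overlap, and the log2FC was -0.31 (SE 0.0784, edgeR adjusted p = 0.013). miR-467a-3p averaged 192 ± 57.7 CPM for WT (SD, n = 5) and 188 ± 19 CPM for KO (SD, n = 5), and was not called.

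Among the miR-669 members, 3 of 4 tested 3p products and 3 of 9 tested 5p products fell, and the log2FC values of all 13 were below 0. The 3p product that was not called was miR-669o-3p, although it carries the same reads as miR-669a-3p, which was called. miR-669c-5p was at 936, 874, 786, 863 and 579 CPM in WT and at 580.1, 642, 458, 475 and 572 CPM in KO. The 1 low WT library overlapped KO, and the log2FC was -0.54 (SE 0.136, edgeR adjusted p = 0.0118). The other 5p falls were those of miR-669d-5p (log2FC -0.38, SE 0.133, edgeR adjusted p = 0.0469) and miR-669m-5p (log2FC -0.37, SE 0.156, edgeR adjusted p = 0.0892). miR-669c-3p, the other arm of miR-669c, had 3 counts in the 22 libraries and was not tested. miR-669f-3p had the largest fall of the members called, from 51.6, 39.8, 48, 39.5 and 44.2 CPM in WT to 32.3, 18.6, 16.8, 35.9 and 29.7 CPM in KO. The groups did not overlap, with a log2FC of -0.74 (SE 0.21, edgeR adjusted p = 0.0174).

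The calls of miR-669m-3p and miR-669a-3p depended on single libraries and on the processing. miR-669m-3p was at 24.3, 17.5, 28.6, 32.2 and 31.3 CPM in WT and 20.8, 17.7, 15.6, 11.5 and 19.8 CPM in KO, with a log2FC of -0.62 (SE 0.216, edgeR adjusted p = 0.0469). Its adjusted p was 0.108 without WT replicate 4, 0.105 without KO replicate 4 and 0.107 without the filter on low counts. miR-669a-3p was at 6335, 6256, 6722, 6636 and 7319 CPM in WT and 5708, 5439, 4422, 5995 and 6683 CPM in KO, with a log2FC of -0.21 (SE 0.0898, edgeR adjusted p = 0.09). The groups overlapped, and its call was lost in 7 of the 10 fits that left out 1 library, those without WT replicate 1, 3, 4 or 5 or KO replicate 1, 2 or 3, where the edgeR adjusted p reached 0.178. With all libraries it was also lost with DESeq2 (adjusted p = 0.156), with the size factors of DESeq2 in edgeR (0.135), with library totals only (log2FC -0.11, adjusted p = 0.324) and with per-locus counts of near-identical names (0.102). miR-669a-5p averaged 1545 ± 72.8 CPM for WT (SD, n = 5) and 1362 ± 167 CPM for KO (SD, n = 5) and was not called (log2FC -0.15, SE 0.0867, edgeR adjusted p = 0.181), but it was called lower without KO replicate 5 (edgeR adjusted p = 0.0396).

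The next comparison asked the same of KI. In KI both directions were seen. miR-669a-3p with miR-669o-3p, miR-669c-5p, miR-669f-3p, the miR-297 3p products, miR-669p-3p and miR-466a-5p fell, and miR-466l-5p and miR-466k rose. Of 46 members tested, 10 were called (21.7%), 8 lower and 2 higher, from 8 of the 37 groups of near-identical names tested. Of all 387 miRNAs tested, 38% were called, 19.9% lower and 18.1% higher. The median log2FC of the members was 0.03, and 23 were above 0 and 23 below. Of the 3p products 6 of 17 were called lower and 0 higher, and of the 5p products 2 of 27 were called lower and 1 higher. Here too the counts are of names, since miR-669a-3p and miR-669o-3p carry the same reads, as do the miR-297 3p names. Among the other miRNAs, 36 of 154 3p products were lower and 34 higher, and 32 of 177 5p products were lower and 32 higher. With scaling by library total only, 9 members were called, 6 higher and 3 lower, so the split between the directions depended on the scaling. The share of all miRNAs called under that scaling is not given here. With the main scaling, the count was 6 without WT replicate 5 of batch 2 and 17 without KI replicate 2.

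miR-669a-3p ranged from 7092 through a median of 7503 to 8020.1 CPM in WT, and from 4856 through 5952 to 6612 CPM in KI. All KI libraries were below all WT libraries. Its log2FC was -0.34 (SE 0.0596, edgeR adjusted p = 0.000885). miR-669a-3p and miR-669o-3p, which carry the same reads, were the members whose samples did not overlap between KI and WT, against 8.79% of all miRNAs tested that did not overlap in this direction. miR-669a-5p averaged 687 ± 64.1 CPM for WT (SD, n = 6) and 799 ± 153 CPM for KI (SD, n = 6) and was not called (log2FC 0.24, SE 0.117, edgeR adjusted p = 0.14). It was called higher without KI replicate 1, 2 or 5 (edgeR adjusted p = 0.0854, 0.0962 and 0.0342), and with all libraries when scaled by their totals only (log2FC 0.32, edgeR adjusted p = 0.0523).

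miR-669c-5p ranged from 527 through 598 to 652 CPM in WT and from 405 through 434 to 536 CPM in KI. The highest KI library overlapped the lowest WT library, and the log2FC was -0.37 (SE 0.0821, edgeR adjusted p = 0.00407). miR-669f-3p ranged from 47.1 through 57.1 to 63.5 CPM in WT and from 33.8 through 39.9 to 61.7 CPM in KI, with 1 KI library among the WT values. Its log2FC was -0.37 (SE 0.137, edgeR adjusted p = 0.0546), and the call was lost without WT replicate 6 or KI replicate 1 or 5, with edgeR adjusted p of 0.123, 0.16 and 0.131, and also with library totals only (0.121) and without the filter on low counts (0.157). miR-297a-3p ranged from 169 through 188 to 203 CPM in WT and from 125 through 163 to 172 CPM in KI. The groups overlapped, with a log2FC of -0.23 (SE 0.0907, edgeR adjusted p = 0.0665), and the call was lost without WT replicate 1, 4 or 5 or KI replicate 1 or 5 (edgeR adjusted p up to 0.147), with library totals only (log2FC -0.15, edgeR adjusted p = 0.268) and without the filter on low counts (0.262).

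The other falls in KI were of low counts. miR-669p-3p gave a log2FC of -1.11 (SE 0.468, edgeR adjusted p = 0.0882), and miR-466a-5p, with 77 counts in all KI libraries, gave -0.59 (SE 0.259, edgeR adjusted p = 0.0978).

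The miR-466 members differed in direction by arm. The 6 tested 3p products lay between -0.23 and -0.18 on the log2 scale and 0 of them were called. miR-466b-3p ranged from 2478 through 2681 to 3194 CPM in WT and from 1882 through 2401 to 2760.4 CPM in KI, with a log2FC of -0.18 (SE 0.0878, edgeR adjusted p = 0.128), and it was called lower without KI replicate 2 or 6 and in the fit of all 4 groups (edgeR adjusted p = 0.0687). Of the 9 tested 5p products 7 were above 0. miR-466l-5p ranged from 8.79 through 14.8 to 18.2 CPM in WT and from 16 through 23.8 to 28.9 CPM in KI, with a log2FC of 0.73 (SE 0.188, edgeR adjusted p = 0.0108). The lowest KI library overlapped the WT values. miR-466k, the UG-rich miRNA printed above, ranged from 8.56 through 11 to 14 CPM in WT and from 12.4 through 17 to 23 CPM in KI, with a log2FC of 0.64 (SE 0.183, edgeR adjusted p = 0.0182). These 2 rises rest on 20 to 80 and 16 to 55 counts per library. Among the miR-467 members 0 of 8 tested were called, and miR-467e-5p averaged 647 ± 41.5 CPM for WT (SD, n = 6) and 606 ± 54.3 CPM for KI (SD, n = 6).

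**Figure D2:**
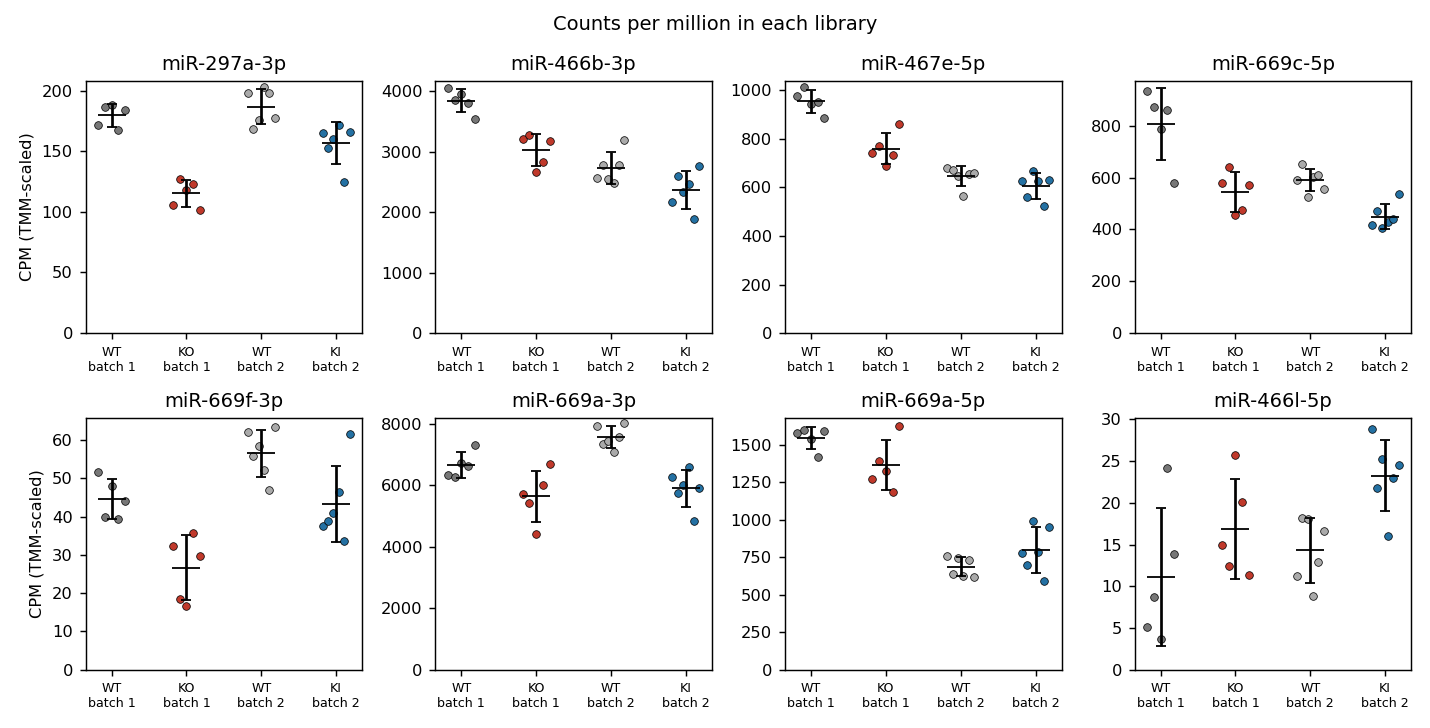
CPM (TMM-scaled) of 8 members in each of the 22 libraries by group, with points for libraries and bars for the mean and SD (n = 5 in each group of batch 1, n = 6 in each group of batch 2). miR-297a-3p, miR-466b-3p, miR-467e-5p and miR-669f-3p in KO and miR-669a-3p in KI lie wholly below the WT libraries of their batch, and miR-669a-5p is about 1545 CPM in WT of batch 1 and 687 CPM in WT of batch 2.

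Set side by side, 41 members were tested for both KO and KI, each against its own WT libraries. Of these, 20 were below 0 in both, 9 above 0 in both, 12 below 0 in KO and above 0 in KI, and 0 the other way. The 5 that were called lower in both were miR-669f-3p, miR-669a-3p, miR-669c-5p, miR-297a-3p and miR-297b-3p, from 4 groups of near-identical names. Of these, miR-669c-5p was the one whose call held in both mutants under every alternative run. Under the name miR-669o-3p, which carries the same reads as miR-669a-3p, a fall was called in KI but not in KO. A fit of the 22 libraries together tested how far the effect of KO differed from that of KI. This difference was called for 0 of 51 members by edgeR and also by DESeq2, and for 0% of all 421 miRNAs by edgeR. At an unadjusted p under 0.05, 8 members passed, and the lowest adjusted p was 0.202. The difference was below 0 for 43 members and above 0 for 8, with a median of -0.17 over the members and 0.02 over all miRNAs. It was -0.38 (SE 0.132) for miR-297a-3p, -0.40 (SE 0.155) for miR-669a-5p and -0.62 (SE 0.293) for miR-669m-3p. Without KI replicate 2 it was called for 2 members, both lower. A difference between the mutants was not shown for members, and these values do not show that the mutants act alike.

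**Figure D3:**
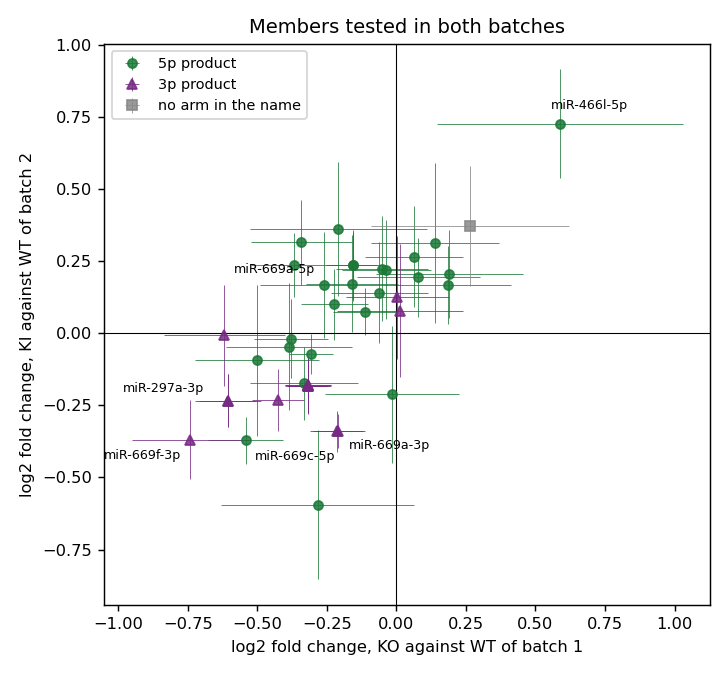
Log2 fold change of KO against WT of batch 1 (horizontal axis) and of KI against WT of batch 2 (vertical axis) for the 41 members tested in both, with bars of 1 standard error. Green circles are 5p products, purple triangles 3p products and the grey square a name with no arm, and 20 members lie to the lower left and 0 to the lower right.

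The WT libraries of the 2 batches were compared to see how far members differ where no mutation is present. With the main (TMM) scaling, many 5p products were lower in batch 2 and most 3p products of miR-669 and miR-297 were not. Of 48 members tested, 30 were called (62.5%), 28 lower and 2 higher in batch 2. The background was 56.7% of 383 miRNAs, with 29.8% lower and 26.9% higher. The 28 lower names came from 21 of the 39 groups of near-identical names tested. The median log2FC was -0.54 over the members and -0.01 over all miRNAs. Samples of batch 2 were all below those of batch 1 for 22 of the 48 members, against 18.5% of all miRNAs tested. By arm, 20 of 28 5p products were lower and 0 higher, while 8 of 18 3p products were lower and 2 higher. These are also counts of names, and names in a group carry the same reads. In miR-467 all 5 5p products were lower, in miR-669 9 of 10, in miR-466 5 of 10 and in miR-297 1 of 3. With scaling by library total only, the median of all miRNAs moved to -0.34 and 41 members were called lower and 0 higher. The share of all miRNAs called under that scaling is not given here, so this count shows the effect of scaling and is not a result about the members.

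miR-669a-5p fell from 1421 to 1596 CPM in batch 1 to 619 to 758 CPM in batch 2, with a log2FC of -1.23 (SE 0.0882, edgeR adjusted p = 3.17e-08). Its 3p partner miR-669a-3p was not lower with the main (TMM) scaling. It averaged 6654 ± 420.4 CPM for WT of batch 1 (SD, n = 5) and 7566 ± 351 CPM for WT of batch 2 (SD, n = 6). miR-669a-3p and miR-669f-3p were the 2 calls that were higher (log2FC 0.13 and 0.29, edgeR adjusted p = 0.0782 and 0.0815). Both were below 0 when libraries were scaled by their totals only. There miR-669a-3p was called lower (log2FC -0.20, edgeR adjusted p = 0.00379) and miR-669f-3p was not called. Each higher call was lost in 7 of the 11 fits that left out 1 library, with edgeR adjusted p up to 0.24 and 0.173. For miR-669a-3p these were the fits without replicate 1, 2 or 4 of batch 1 or 2, 3, 4 or 5 of batch 2, and for miR-669f-3p those without replicate 2 or 4 of batch 1 or 1, 2, 3, 4 or 6 of batch 2. Under the name miR-669o-3p, which carries the same reads as miR-669a-3p, no difference between the batches was called. miR-467b-5p ranged from 41.9 to 72.9 CPM in batch 1 and from 23 to 27.7 CPM in batch 2, with a log2FC of -1.28 (SE 0.159, edgeR adjusted p = 8.96e-06). miR-466h-5p ranged from 14.7 to 25.8 CPM and from 3.52 to 15.2 CPM, with a log2FC of -1.30 (SE 0.309, edgeR adjusted p = 0.00234). The 3p products of miR-297 were not called (edgeR adjusted p = 0.989 for miR-297a-3p). With library totals only they were called lower (log2FC -0.32, edgeR adjusted p = 0.00632 for miR-297a-3p). What set the batches apart is not given in the labels, and no genotype effect was taken across them.

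Because both products of a hairpin are measured in the same library, their ratio does not depend on library scaling. This comparison was added after the data had been seen. The counts of the 5p and 3p products were fitted together with edgeR, with the library, the arm and the arm by genotype as terms, for every hairpin with a mean of at least 5 counts for each arm. In KO, 18 member hairpins were tested and 1 was called, toward 5p, against 8.82% of 102 hairpins, 2.94% of them toward 5p. The log2 change of 5p over 3p was above 0 for 15 of the 18, with a median of 0.23 over member hairpins and -0.01 over all. In KI, 19 member hairpins were tested and 3 were called, all toward 5p, against 14.4% of 132 hairpins, 7.58% of them toward 5p. The change was above 0 for 16 of the 19, with a median of 0.36 over member hairpins and 0.04 over all. Hairpins whose arms carry the same reads are not independent, so these counts describe names. Without KI replicate 2 the KI count was 6.

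The hairpin of miR-297a was called in both mutants. Its log2 ratio of 5p to 3p counts was -0.88, -0.93, -1.45, -0.71 and -1.46 in WT and -0.43, -0.67, -0.14, -0.27 and -0.52 in KO. All KO libraries were above all WT libraries, as for 2 of the 18 member hairpins and 2.94% of all hairpins tested, and the change was 0.67 (SE 0.193, edgeR adjusted p = 0.0494). The call was lost without WT replicate 2 or 3 or KO replicate 3 (edgeR adjusted p = 0.113, 0.161 and 0.122) and with counts divided by loci (edgeR adjusted p = 0.107). In batch 2 the ratio ranged from -2.29 to -1.46 in WT and from -1.63 to -1.05 in KI, with a change of 0.52 (SE 0.153, edgeR adjusted p = 0.0419) and 0.102 without WT replicate 2. miR-297a-5p also has a locus outside the cluster, on chromosome 7, so its ratio is not that of 1 hairpin alone.

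The hairpin of miR-669a, a set of copies with 12 loci for 5p and 11 for 3p, was called in KI. Its log2 ratio ranged from -3.69 to -3.32 in WT and from -3.08 to -2.60 in KI, with no overlap, which 3.03% of all hairpins tested showed in this direction. The change was 0.56 (SE 0.107, edgeR adjusted p = 0.00771), and it was called in 12 of 12 fits that left out 1 library. In batch 1 the ratio averaged -2.10 ± 0.114 for WT (SD, n = 5) and -2.05 ± 0.223 for KO (SD, n = 5), and the change of 0.06 (SE 0.119, edgeR adjusted p = 0.8) was not called. Whether the mutants differ in this ratio was not tested. The WT libraries of the 2 batches did not overlap, at -2.22 to -1.97 in batch 1 and -3.69 to -3.32 in batch 2. The KI hairpin of miR-669p was also called (change 1.36, SE 0.459, edgeR adjusted p = 0.0813). Its 5p product has the same counts per locus as miR-669a-5p, so the ratios of these hairpins are not independent. The 3p product of miR-669p had 130 counts in all WT and 64 counts in all KI libraries. These counts were divisible by its 2 loci in every library, so its reads may be fewer. Its call was lost in 6 of 12 fits that left out 1 library, those without WT replicate 1, 2 or 6 or KI replicate 3, 4 or 5 (edgeR adjusted p up to 0.169).

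**Figure D4:**
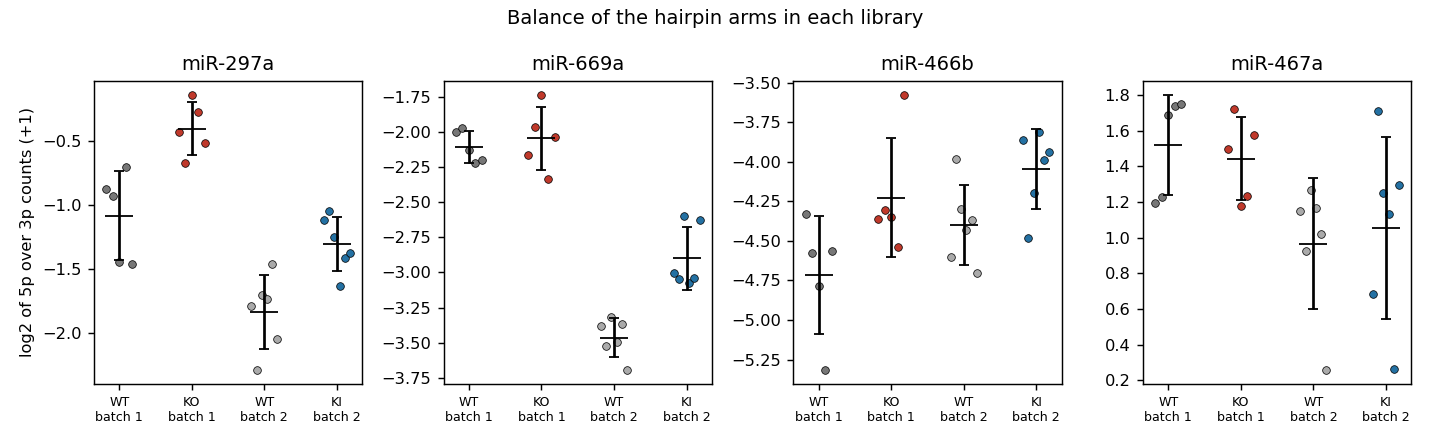
Log2 of the 5p over the 3p counts, with 1 added to each, in every library for the hairpins of miR-297a, miR-669a, miR-466b and miR-467a, with points for libraries and bars for the mean and SD (n = 5 or 6). The mean rises from WT to KO and from WT to KI for miR-297a and miR-466b, and from WT to KI for miR-669a. Mutant and WT libraries lie apart for miR-297a in KO and for miR-669a in KI, and overlap in the other comparisons shown.

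The pattern of a member over the libraries of a batch was compared with that of other miRNAs by Spearman's rho of log2 CPM, as a description. Names of the member's own group of near-identical counts per locus were left out, since they carry the same reads. Libraries of a batch share genotype differences and scaling, so high values are not evidence of a shared origin. Over the 10 libraries of batch 1, miR-466b-3p and miR-669c-5p were both most like miR-672-5p, which is no member, with rho of 0.939 each. Over the 12 libraries of batch 2, miR-672-5p was again the most like miR-466b-3p, with 0.825, and it was the third for miR-669c-5p, with 0.93. miR-466b-5p was most like miR-466o-5p in both batches, with 0.952 and 0.986. These names had 650.8 and 800.0 counts per locus, outside the 10% limit, and whether they share reads was not tested. For miR-669a-3p the most alike was miR-741-3p in batch 1, with 0.891, and miR-22-3p in batch 2, with 0.965. The 5p arm of the same number was not the most alike for any of miR-297a-3p, miR-466b-3p and miR-669a-3p.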

How the data were processed

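Small RNA libraries of 22 RS samples in 4 groups were used, and all samples entered a comparison. The deposited values are raw read counts, 1 whole number for each mature name and library. As the header and the study's methods state, the authors trimmed adapters with cutadapt 3.4 (minimum length 15), aligned reads to GRCm38 with Bowtie2 2.4.2 in local mode with up to 100 alignments reported per read, and counted alignments on mature miRNAs with featureCounts 2.0.1, with strand and with duplicates kept. The command held no option for multi-mapped reads, and the values show that reads were counted at several copies. All 22 columns matched a sample, and 0 were left unused.

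The members and lists were chosen with earlier results of these data known. Names with identical counts were 1 member. Host genes were taken from GENCODE vM21. edgeR 4.0.16 in R 4.3.3 was run on the counts as deposited (quasi-likelihood F-test, TMM, filterByExpr), KO and KI each against the WT of its batch with genotype as the only term, WT between batches, and the difference of the effects over 4 groups. Benjamini-Hochberg adjustment ran over the whole table, and the threshold of 0.1 is that of the study, which used DESeq2. CPM were scaled by TMM over all 22 libraries. Named members were the most abundant of each number and arm, the 5 largest called changes for KO and KI and the 3 largest between WT batches with a mean of at least 10 CPM in a group, and both arms of miR-669c, which the study names.

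No libraries were duplicates, since the chi-square per degree of freedom between replicates was at least 7.28. Each fit was tested on simulated data with known changes. Alternatives were RLE size factors, library totals, no filter, DESeq2 1.42.0, collapsed names, a replicate block, a fit of all groups, and each library left out. Replacing near-identical members by their mean counts per locus, the test of arms and its alternatives (limma 3.58.1 among them) were chosen after seeing the data.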

Additional observations from a re-analysis of the deposited data

Results flagged for a closer look

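The named members were screened for a library that stood apart from the others of its group, by its gap to the nearest other library as a share of the range. Of 68 combinations of member and group, 5 stood out, and about 3.4 are given by chance, since the limit flags about 1 in 20. On the log2(CPM + 1) scale miR-297a-3p was low in KI replicate 5 at 6.98 (the others 7.27 to 7.44), and so was miR-297b-3p at 5.99 (the others 6.28 to 6.44), which carries the same reads. WT replicate 4 of batch 2 had the lowest miR-467e-5p, 9.15 (the others 9.34 to 9.41). miR-467a-3p was high in WT replicate 6 of batch 2 at 7.62 (the others 6.73 to 6.99). miR-466k was high in WT replicate 1 of batch 1 at 4.1 (the others 2.77 to 3.06). The KI call of miR-297a-3p was lost without KI replicate 5 (log2FC -0.17, edgeR adjusted p = 0.132).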

How the results depend on the processing

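The 3-count floors of the report limit what the 34 members below 10 CPM can show. In KO 8 members were called, all lower, when near-identical members were replaced by their mean counts per locus, an alternative chosen after seeing the data, and 12 to 16 under the 7 others. In KI 6 were called (2 higher, 4 lower) without the filter on low counts and 16 (2 higher, 14 lower) in the fit of all 4 groups, against 10. Leaving out 1 library gave 12 to 18 for KO, 6 to 17 for KI, 26 to 33 for WT between batches and 0 to 2 for the difference of the effects. Samples with the same replicate number in their titles were alike in some pairs and not in others, so the fits without a block were kept as the main ones. Deviations of same-numbered samples correlated at 0.0506 on average in KO (2 of 5 above 0.1) and 0.196 in KI (3 of 6), and 2 and 3 samples were most like their own number. With the replicate block, 14 members were called in KO, 12 in KI and 1 for the difference of the effects (25 of all miRNAs). The block also ended the KO call of miR-669m-3p (edgeR adjusted p = 0.104) and gave a KI call of miR-466b-3p (0.0526).

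The share of counts was 1.10%, 0.957%, 0.627% and 0.588% in WT of batch 1, KO, WT of batch 2 and KI with counts divided by loci, and 0.649%, 0.564%, 0.362% and 0.344% with near-identical members replaced. Leaving out 1 library gave 2.24% to 2.29%, 2.01% to 2.08%, 1.43% to 1.47% and 1.30% to 1.37%. The hairpins called for arm balance in KO were 2 with the replicate block, 2 with limma, 0 with counts divided by loci and 0 to 2 with 1 library left out (0 without WT replicate 2 or 3 or KO replicate 3, and 2 without WT replicate 1 or 5 or KO replicate 1 or 4). In KI they were 5 with limma, 4 with the replicate block, and 2 to 6 with 1 library left out. With library totals only, the median of all miRNAs moved to 0.13 in KO and -0.34 between WT batches, and the difference between WT batches turned to -0.32 for miR-297a-3p and miR-297b-3p, -0.20 for miR-669a-3p and -0.044 for miR-669f-3p. All of these but miR-669f-3p were called lower there. Of the fits of named members under an alternative, 780 kept their call and direction, 53 lost a call, 16 gained one and 4 reversed. The cause of these changes was not tested.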
